A study of Mus musculus with 16 samples.

Results

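A set of 47 genes that mark neural progenitors or steer their differentiation into neurons was followed in the hippocampus of Mef2c-het and WT mice at postnatal days 1 (P1) and 30 (P30). The members were listed by gene name, with earlier results of these data known. Their probes were found by gene identifier or accession, also where the array lists an older symbol, and all were taken. Of the 47 genes, 45 had at least 1 probe among the 17567 genes named on the array, and the probe of highest mean signal stood for each. Older symbols carried 7 of them, among them Bhlhe22 (listed as Bhlhb5), Zbtb18 (Zfp238) and Dclk1 (Dcamkl1). Emx1 and Sox11 were not analysed here. A probe entered the tests when it was detected, at a detection p-value under 0.05 against negative control beads, on at least 4 of the 16 arrays. This left 39 members among 14777 probes tested.

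Mef2c-het mice carry 1 conventional allele of Mef2c from which exon 2 is deleted, in every cell, on the C57BL/6J background, and the labels call them KO. The WT animals came from the same crosses. Total RNA of the hippocampus was hybridised to 16 Illumina MouseRef-8 v2 beadchip arrays, with 4 arrays in each of the groups WT P1, Mef2c-het P1, WT P30 and Mef2c-het P30. The labels name no sex, litter, chip or treatment and do not say that each array is a separate mouse, so p-values measure the spread between these samples, which may in part be technical. The genotype comparison asks what loss of 1 Mef2c allele changes, and the age comparison gives the postnatal course of the same genes.

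Neurons of the forebrain arise from dividing progenitors that line the ventricle and, in the dentate gyrus, persist after birth. Notch receptors activated by Delta ligands on neighbouring cells induce Hes and Hey repressors, which keep progenitors undifferentiated and block the proneural basic helix-loop-helix factors. When Notch activity drops, Neurog2 and then Eomes, Insm1, Neurod and Tbr1 mark successive steps toward a glutamatergic neuron, and doublecortin (Dcx) stabilises the microtubules of the migrating newborn cell. MEF2C is a transcription factor active in this later, postmitotic phase.

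Levels below are log2 intensities after quantile normalization of the 16 arrays, and a fold change is a difference of group means on that scale. Between 12638 and 14150 probes were detected per array, each probe being read from a median of 36 to 39 beads, and the beads of a probe gave a median standard error of 3.38% to 4.05% of its intensity. The lowest log2 intensity called detected lay between 7.27 and 7.38. Clustering within each age set apart 5 arrays, 1 each of WT P1, Mef2c-het P1 and Mef2c-het P30 (replicates 8, 8 and 7) and 2 of WT P30 (replicates 6 and 7). Their background was higher, with the 5th percentile of intensity at 140 to 161.4 against 105.8 to 130.8 on the other 11 arrays. Of the 8 P1 arrays, 5 read as female from Xist and Y-linked genes (3 WT and 2 Mef2c-het), and no P30 array did, so that age and sex were in part confounded. Age cannot be told apart from any processing batch that followed it.

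The deleted gene was read first. The brighter Mef2c probe measured 9.39, 9.49, 9.57 and 9.61 in WT and 9.15, 9.55, 9.62 and 9.73 in Mef2c-het at P1. At P30 it measured 9.61, 9.80, 9.80 and 9.62 in WT and 9.20, 9.76, 8.97 and 9.92 in Mef2c-het. The genotypes overlapped at both ages. The log2 difference of Mef2c-het from WT was -0.01 at P1 and -0.25 at P30 by this probe (two-sided exact permutation p = 0.971 and 0.371), and 0.07 and -0.29 by another (exact p = 0.714 and 0.2). Where these probes lie relative to the deleted exon was not determined here, so they do not check the labels.

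Most of the members fell from P1 to P30 in both genotypes. Because the list was chosen with earlier results known, the shares over all probes give scale and do not test the list. In WT, 31 of the 39 members fell and 4 rose at a Benjamini-Hochberg adjusted p under 0.05 by limma, where 31.7% of all probes tested fell and 28% rose (59.7% in either direction). The median log2 change of the members was -0.85, beside -0.03 for all probes, and -1.32 beside -0.07 after normexp background correction. In Mef2c-het, 29 fell and 4 rose (31.4% and 26.9% of all probes, 58.3% together), with a median of -0.73 beside -0.02 (-1.07 beside -0.05 after that correction). Eomes and Neurod6, among the falls in both genotypes, passed the detection filter through P1 arrays alone. A fall of over 2-fold, a log2 change below -1, was measured for 17 members in WT and 13 in Mef2c-het, where 5.29% and 5.1% of all probes fell that far. The mean level over the 39 members lay between 10.16 and 10.43 on the 8 arrays of P1 and between 9.21 and 9.34 on those of P30, without overlap. The arrays of P1 and P30 did not overlap for 34 members in WT, against 53.1% of all probes, and for 32 in Mef2c-het, against 52.5%. The 33 members called in both genotypes had the same direction in both, and the log2 changes correlated across the 39 genes with a Pearson r of 0.988, against 0.98 over all probes. These comparisons share no array, but genes are not independent replicates. In whole hippocampus a lower signal can come from fewer cells of a type or from less RNA in each, which cannot be told apart.

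**Figure D1:**
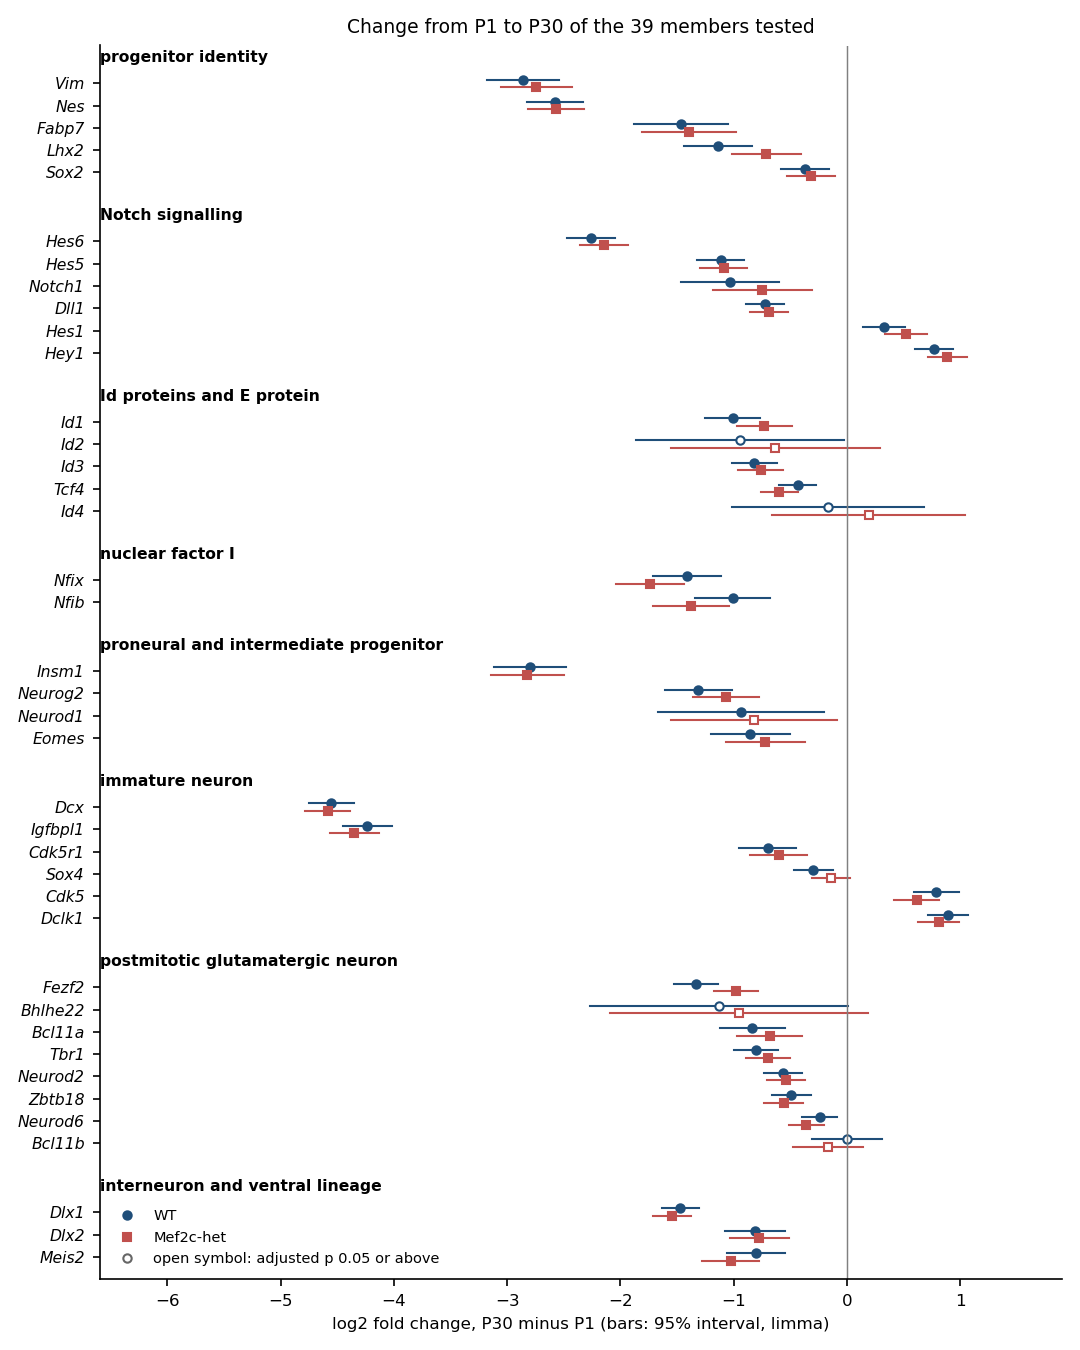
Log2 fold change from P1 to P30 (x axis) of the 39 members tested, grouped by role and ordered within a role by the WT value. Points are limma estimates for WT (blue circles) and Mef2c-het (red squares), bars are 95% intervals, and open symbols have an adjusted p of 0.05 or above. Dcx and Igfbpl1 lie beyond -4, and Hes1, Hey1, Cdk5 and Dclk1 lie above 0 in both genotypes.

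Genes of the immature neuron held the largest fall and the largest rise of the members in WT. Of the 6 tested, 4 fell and 2 rose in WT, and 3 fell and 2 rose in Mef2c-het. Dcx, the microtubule-associated protein of migrating and newborn neurons, measured 13.18, 13.34, 13.31 and 13.06 in WT at P1 and 8.47, 8.58, 8.79 and 8.83 at P30. In Mef2c-het it measured 13.07, 13.45, 13.15 and 13.32 at P1 and 8.60, 8.68, 8.72 and 8.64 at P30. Every P30 array was lower than every P1 array by over 4 units. The log2 change was -4.55 ± 0.095 (SE) in WT, a 23.5-fold fall (adjusted p = 1.77e-15, limma), and -4.59 in Mef2c-het. This was the largest fall among the 14777 probes in either genotype, and a second tested probe of Dcx gave -4.39 in WT and -4.23 in Mef2c-het. Another Dcx probe was too dim to test. Igfbpl1, a secreted protein related to the insulin-like growth factor binding proteins that newborn neurons express, was close behind. It measured 12.26, 12.22, 12.28 and 12.51 in WT at P1 and 8.14, 7.95, 8.05 and 8.19 at P30, an 18.8-fold fall (log2 change -4.23 ± 0.101, adjusted p = 8.06e-15, limma). In Mef2c-het the fall was 20.4-fold. In WT the only 3 probes of 14777 with a log2 change below -4 were both tested Dcx probes and that of Igfbpl1 (0.0203% of probes), and in Mef2c-het Dpysl5 was the only addition (0.0271%).

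Dclk1, the doublecortin-like kinase, which shares with Dcx the domain that binds microtubules, went the other way. Its probe was not placed on a transcript here, so which form of Dclk1 rose was not determined. It measured 11.74, 11.27, 11.46 and 11.64 in WT at P1 and 12.48, 12.35, 12.40 and 12.44 at P30. The rise was 1.86-fold in WT (log2 change 0.89 ± 0.084, adjusted p = 1.14e-07, limma) and 1.75-fold in Mef2c-het, with no overlap of the ages. Cdk5, the neuronal kinase that phosphorylates DCX, rose 1.73-fold in WT and 1.53-fold in Mef2c-het. Its activator p35, encoded by Cdk5r1, fell 1.63-fold and 1.52-fold. Sox4, a transcription factor that drives pan-neuronal genes in immature neurons, was near background. It fell by 0.30 in WT (adjusted p = 0.00438, limma), and its log2 change in Mef2c-het was -0.14 (adjusted p = 0.149, limma).

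Promoters are shown for the doublecortin pair, which moved apart, and for Hes5 and Hes6, which moved together. Each is the stretch of 250 bases before the most upstream start of transcription in the RefSeq table of GRCm38.p6, read 5′ to 3′ on the gene's strand. Capitals mark matches on either strand to an E-box (CANNTG, the core bound by helix-loop-helix factors) or to TGGGAA, the core bound by RBPJ, the DNA-binding partner of Notch. The MEF2-type element CTANNNNTAG was searched as well. Dcx is at chrX:143933220-143933469 on the minus strand, Dclk1 at chr3:55242114-55242363 on the plus strand, Hes5 at chr4:154960673-154960922 on the plus strand and Hes6 at chr1:91414039-91414288 on the minus strand.
Dcx: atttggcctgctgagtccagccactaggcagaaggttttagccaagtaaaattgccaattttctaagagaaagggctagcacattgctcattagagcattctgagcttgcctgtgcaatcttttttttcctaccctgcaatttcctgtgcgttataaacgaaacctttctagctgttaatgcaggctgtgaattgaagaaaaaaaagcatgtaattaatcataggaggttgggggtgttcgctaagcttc
Dclk1: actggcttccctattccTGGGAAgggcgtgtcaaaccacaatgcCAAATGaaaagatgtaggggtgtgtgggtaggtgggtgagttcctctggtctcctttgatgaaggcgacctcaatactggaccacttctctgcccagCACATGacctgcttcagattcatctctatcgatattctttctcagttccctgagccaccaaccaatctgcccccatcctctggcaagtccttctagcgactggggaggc
Hes5: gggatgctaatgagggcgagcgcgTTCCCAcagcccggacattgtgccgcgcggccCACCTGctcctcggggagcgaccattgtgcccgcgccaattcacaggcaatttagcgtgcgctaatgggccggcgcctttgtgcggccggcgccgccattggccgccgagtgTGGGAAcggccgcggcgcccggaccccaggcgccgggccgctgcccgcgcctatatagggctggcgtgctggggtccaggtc
Hes6: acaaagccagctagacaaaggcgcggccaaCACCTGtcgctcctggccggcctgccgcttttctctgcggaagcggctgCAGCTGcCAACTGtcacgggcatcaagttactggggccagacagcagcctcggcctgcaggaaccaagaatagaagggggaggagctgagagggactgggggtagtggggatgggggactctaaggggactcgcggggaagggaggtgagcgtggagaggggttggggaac

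The Hes5 window held 2 TGGGAA matches, starting 226 and 82 bases before the start, and 1 E-box. The Hes6 window held 3 E-boxes and no TGGGAA, that of Dclk1 held 2 E-boxes and 1 TGGGAA, and that of Dcx held none of the motifs searched. A promoter of this table was found for 35 of the 47 members. An E-box stood in 18 of these 35 windows, against 66.1% of the windows of all 27025 genes. TGGGAA stood in 8 of 35 against 21.5%, and the MEF2-type element in 0 of 35 against 3.2%. A match is a string of letters in this window and was not tested as a binding site. Whether the start used here drives the RNA that a probe reads was not determined.

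Of the 6 Notch pathway members tested, 4 fell and 2 rose in each genotype. Notch1, the receptor, and Dll1, a Delta ligand, fell. Notch1 had a log2 change of -1.03 ± 0.204 in WT and -0.75 in Mef2c-het, and Dll1 of -0.72 ± 0.079 and -0.69. The 4 Hes and Hey genes moved in both directions. Hes6, a family member that opposes Hes1 and favours neuronal differentiation, measured 11.07, 11.30, 10.85 and 11.33 in WT at P1 and 8.75, 8.88, 8.88 and 9.01 at P30. That was a 4.78-fold fall (log2 change -2.26 ± 0.099, adjusted p = 9.49e-12, limma), and the fall was 4.43-fold in Mef2c-het. Its other probes gave -1.46 and -1.24 in WT. Hes5, the Notch target of embryonic progenitors, fell 2.17-fold in WT and 2.13-fold in Mef2c-het, and all its P30 arrays were below all its P1 arrays.

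Hey1, also induced by Notch and expressed in vessels as well as in progenitors, rose. It measured 10.56, 10.90, 10.56 and 10.76 in WT at P1 and 11.52, 11.42, 11.48 and 11.44 at P30, a 1.71-fold rise (log2 change 0.77 ± 0.079, adjusted p = 3.32e-07, limma). In Mef2c-het the rise was 1.85-fold, and the ages did not overlap in either genotype. Hes1, the classical Notch effector that astrocytes keep expressing, rose 1.25-fold in WT (log2 change 0.32 ± 0.087, adjusted p = 0.00434, limma) and 1.44-fold in Mef2c-het. On the 11 arrays of lower background alone, a choice made after seeing the data, the WT change of Hes1 was 0.24 (adjusted p = 0.0585, limma), which no longer passed. Dll3, a ligand-like inhibitor of the pathway, was detected on 2 arrays and was not tested.

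**Figure D2:**
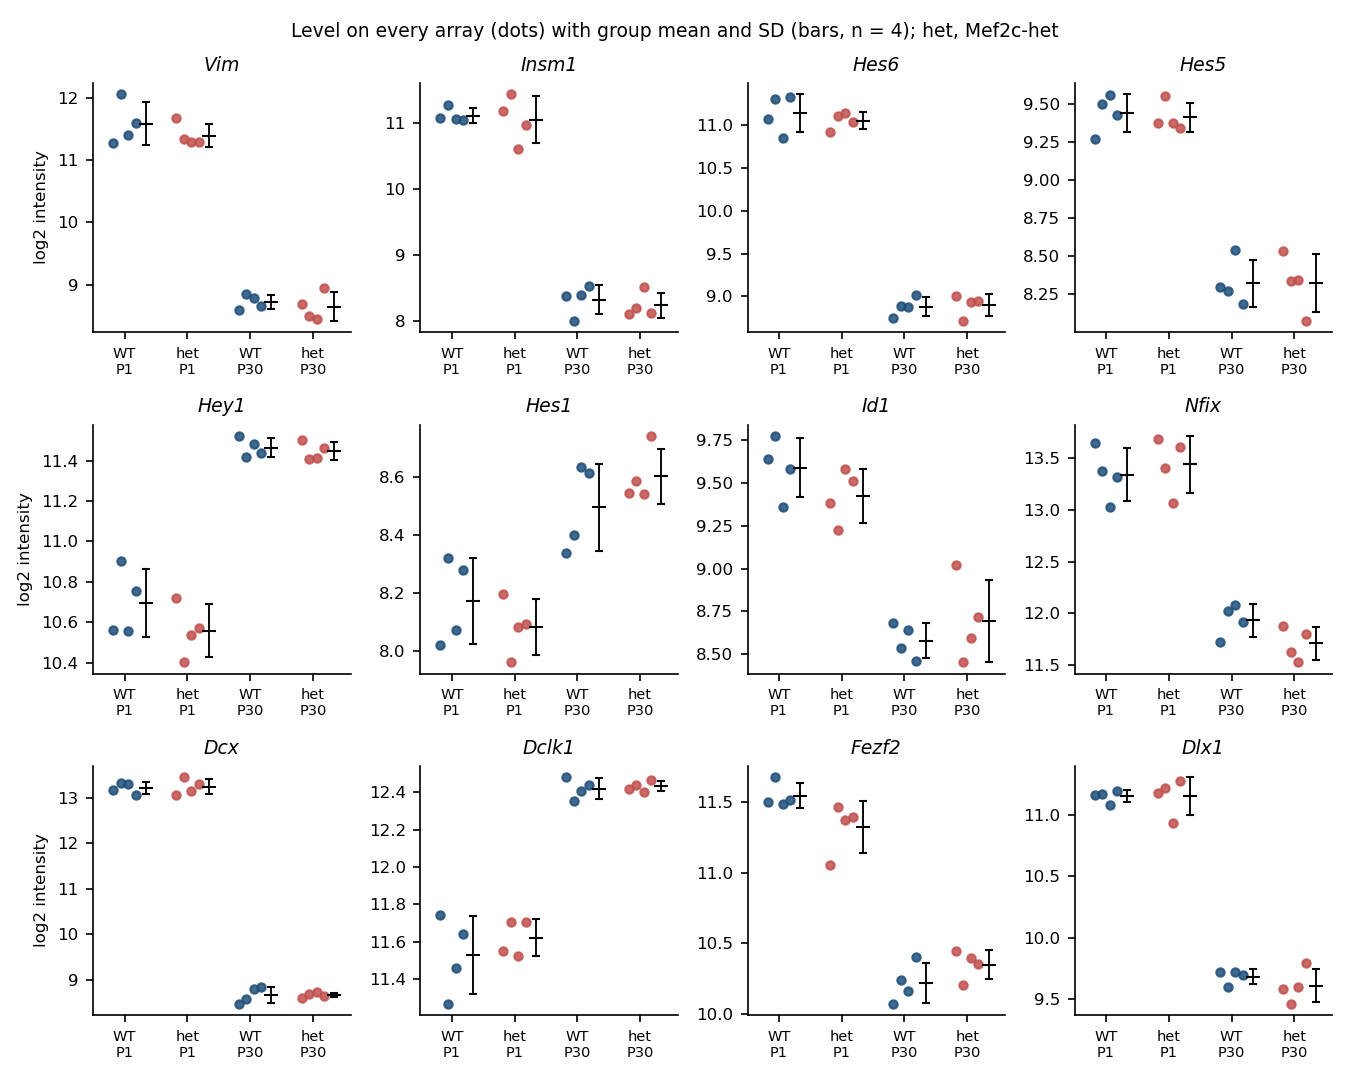
Log2 intensity (y axis, a scale of its own in each panel) of 12 members on every array, with WT in blue and Mef2c-het (het) in red at P1 and P30. Bars are the group mean and SD (n = 4 arrays). Levels at P30 lie below those at P1 without overlap for every panel except Hey1, Hes1 and Dclk1, which lie above.

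All 5 genes of progenitor identity tested fell in both genotypes, with a median log2 change of -1.46 in WT and -1.40 in Mef2c-het. Vim, the intermediate filament of radial glia and of vessels, measured 11.28, 12.05, 11.40 and 11.60 in WT at P1 and 8.60, 8.85, 8.79 and 8.66 at P30, a 7.26-fold fall (log2 change -2.86 ± 0.149, adjusted p = 7.41e-11, limma). In Mef2c-het the fall was 6.69-fold. Nes, the nestin filament by which neural stem cells are recognised, fell 5.97-fold and 5.94-fold, although its second probe gave a smaller log2 change (-0.81 in WT and -0.88 in Mef2c-het). Fabp7, the fatty acid binding protein of radial glia, fell by 1.46 and 1.40 on the log2 scale, and was detected at P30 on 1 of 4 WT and 3 of 4 Mef2c-het arrays, so that these falls are understated where the signal was at background. Lhx2, a cortical selector factor, fell by 1.14 and 0.71, and Sox2, which maintains stem cells and stays on in astrocytes, by 0.37 and 0.32. A second Sox2 probe gave -0.48 in WT and -0.18 in Mef2c-het, where it did not pass (adjusted p = 0.303, limma). This dim probe was detected on none of the arrays of higher background, nor on WT P30 replicate 3. Pax6, Emx2 and Sox3, further progenitor factors, were detected on 0 of the 16 arrays and were not tested.

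All 4 proneural and intermediate progenitor genes, which act as a progenitor commits to the neuronal fate, fell in WT, and 3 of them fell in Mef2c-het. Insm1, a zinc finger factor of basal progenitors, measured 11.09, 11.28, 11.07 and 11.05 in WT at P1 and 8.37, 8.0, 8.39 and 8.53 at P30, a 6.96-fold fall (log2 change -2.80 ± 0.152, adjusted p = 1.23e-10, limma). The fall in Mef2c-het was 7.08-fold. Neurog2, a proneural factor of glutamatergic neurons, fell by 1.31 and 1.07 on the log2 scale. It was detected on 2 of 4 arrays in each P30 group, so that these falls are understated where the signal was at background. Its second probe, close to background, gave -0.21 in WT (adjusted p = 0.0523, limma). Eomes (TBR2), the marker of intermediate progenitors, was detected on 4 WT and 3 Mef2c-het arrays at P1 and on 0 of 8 at P30. Since a probe below detection gives only a bound, its fall was at least 1.56-fold in WT and at least 1.36-fold in Mef2c-het. The fitted differences, which take the P30 background as measured, had an adjusted p of 0.000277 and 0.00123 (limma). Eomes passed the detection filter through its P1 arrays alone. Neurod1, which promotes survival and maturation of newborn granule neurons, changed by -0.93 in WT (adjusted p = 0.0286, limma) and by -0.82 in Mef2c-het (adjusted p = 0.0519, limma), with overlap of the ages in both. The WT call was lost without WT P1 replicate 4 or 5 or WT P30 replicate 6 or 7 (adjusted p between 0.0659 and 0.109, limma), with no filter on dim probes (0.0513) and with trend and robust variances (0.0533). In Mef2c-het Neurod1 passed with cyclic loess, with a detection p under 0.01 and in the fit of the 8 arrays compared (adjusted p between 0.0364 and 0.0494, limma), and without Mef2c-het P1 replicate 8 (0.00578).

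Id proteins bind E proteins and keep proneural factors from DNA, and Tcf4 encodes an E protein. Of these 5 genes 3 fell in each genotype. Id1 measured 9.64, 9.77, 9.36 and 9.58 in WT at P1 and 8.68, 8.54, 8.64 and 8.46 at P30, a 2.01-fold fall (log2 change -1.01 ± 0.115, adjusted p = 1.09e-06, limma). In Mef2c-het it fell 1.66-fold. Id3 fell by 0.82 and 0.76 on the log2 scale, and Tcf4 by 0.43 and 0.60. Id2 and Id4 did not pass (adjusted p = 0.0719 and 0.74 in WT, limma), and both were lower on the 5 arrays of higher background, with values given further on.

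The nuclear factor I genes direct the switch from stem cell to differentiated neuron and glia in the hippocampus. Nfix measured 13.65, 13.38, 13.03 and 13.32 in WT at P1 and 11.72, 12.02, 12.08 and 11.92 at P30, a 2.66-fold fall (log2 change -1.41 ± 0.141, adjusted p = 2.31e-07, limma), and fell 3.33-fold in Mef2c-het. A second, dim Nfix probe gave -0.29 in WT. Nfib fell 2.01-fold in WT and 2.59-fold in Mef2c-het. The difference between genotypes in this fall was -0.33 for Nfix and -0.36 for Nfib (unadjusted p = 0.123 and 0.121, adjusted p = 0.998 for both, limma interaction). Nfia was detected on 0 arrays.

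Of the 8 factors of postmitotic glutamatergic neurons 6 fell in each genotype, with a median log2 change of -0.68 in WT and -0.62 in Mef2c-het. Fezf2, which specifies deep-layer projection neurons, measured 11.50, 11.68, 11.49 and 11.52 in WT at P1 and 10.07, 10.24, 10.16 and 10.40 at P30, a 2.52-fold fall (log2 change -1.33 ± 0.092, adjusted p = 2.47e-09, limma). Bcl11a, Tbr1 and Neurod2, factors that set the identity of cortical and hippocampal projection neurons, fell by 0.83, 0.80 and 0.56 on the log2 scale in WT. Zbtb18, a repressor that neurons need to leave the progenitor state, fell by 0.49 in WT and 0.56 in Mef2c-het. Its 5 tested probes ranged from -1.16 to -0.01 in WT. The second brightest of them gave -1.08 ± 0.546 (adjusted p = 0.101, limma). That probe was lower on each array of higher background than on any other array of the same age. Neurod6 was detected on 0 arrays at P30, so that it passed the detection filter through P1 alone. Its fall was at least 1.08-fold in WT and at least 1.15-fold in Mef2c-het. The fitted differences from the P30 background had an adjusted p of 0.00905 and 0.000451 (limma). Bcl11b (CTIP2), a marker of CA1 pyramidal and granule neurons, measured a mean of 11.47 at both ages in WT, and its change of -0.00 had a 95% interval from -0.31 to 0.31. Bhlhe22 gave -1.13 in WT (adjusted p = 0.0808, limma).

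Among the ventral lineage genes all 3 tested fell in both genotypes. Dlx1, the homeobox factor of migrating interneurons, measured 11.16, 11.17, 11.08 and 11.20 in WT at P1 and 9.72, 9.60, 9.72 and 9.70 at P30, a 2.77-fold fall (log2 change -1.47 ± 0.079, adjusted p = 1.03e-10, limma) and a 2.91-fold fall in Mef2c-het. Dlx2, its neighbour on the chromosome, fell by 0.81 and 0.77 on the log2 scale, and Meis2, a cofactor of homeobox proteins in the ventral forebrain, by 0.80 and 1.03. Dlx5 was detected on 0 arrays.

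Further genes of the same pathways and families were counted in the same fit, with log2 changes in WT given in parentheses. Among all probes tested 28% rose and 31.7% fell in WT, and 26.9% and 31.4% in Mef2c-het. A list with shares near these is not set apart by its counts. Of 24 further Notch pathway genes tested, 5 rose and 13 fell in WT, with a median of -0.21. The largest called falls were those of Mfng (-1.39), a glycosyltransferase that modifies Notch, and Dtx4 (-0.92). The largest called rises were those of Numbl (0.78), a Notch inhibitor, and Psen2 (0.27), a subunit of the protease that releases the Notch intracellular domain. Of 11 further helix-loop-helix factors tested, 4 rose and 4 fell with a median of -0.13, led by Bhlhe40 (1.67), the activity-regulated Npas4 (0.61), Mycl (-1.67) and Neurod4 (-0.76). The 10 further Sox factors tested held 1 rise, Sox8 (0.75), and 7 falls, led by Sox12 (-0.90) and Sox7 (-0.81). Of 22 further cortical and hippocampal patterning factors, 0 rose and 13 fell, led by Otx1 (-1.43) and Tshz3 (-1.36). Of 12 genes of the BMP and TGF-beta signalling that acts on the Id genes, 3 rose and 6 fell, led by Chrd (1.82), Bmp4 (0.88), Smad5 (-1.25) and Smad1 (-1.23). In Mef2c-het the counts of rises and falls were 4 and 11, 3 and 5, 1 and 7, 0 and 14, and 3 and 4 in the same order of lists.

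Marker genes of the cell types in the tissue were counted in the same way, beside 28% rises and 31.7% falls among all probes in WT. In Mef2c-het these shares were 26.9% and 31.4%. All 10 markers of proliferating cells tested fell in WT, led by Cdk1 (-2.48) and Mcm5 (-2.22), and their mean level went from 9.22 to 9.48 over the P1 arrays to 7.57 to 7.67 over the P30 arrays. Of 11 astrocyte markers 9 rose, of 13 markers of the oligodendrocyte lineage 12 rose, led by Mbp (7.03), and of 11 markers of mature neurons 10 rose, led by Camk2a (3.93), with 0 falls in these lists. GABAergic interneuron markers held 7 rises, led by Pvalb (5.10), and 2 falls, Reln (-2.07) and Calb2 (-1.25), of 9. Microglia markers held 7 rises of 11, and hippocampal field markers 5 rises, led by Spink8 (3.67), and 1 fall, Prox1 (-0.71), of 10. The mean level of the hippocampal field markers was 8.79 to 9.0 at P1 and 9.75 to 9.95 at P30. Among markers of neighbouring tissue, striatum held 4 rises and 1 fall of 7, and thalamus 3 rises and 3 falls of 7. Choroid plexus held 2 rises and 1 fall of 9, and its mean level differed most between arrays of 1 group, from 8.32 to 10.16 in WT P1. In Mef2c-het the proliferation list held 9 falls, the astrocyte, oligodendrocyte and mature neuron lists 10, 10 and 9 rises, and microglia 11 rises of 11. Rises and falls in Mef2c-het were 7 and 2 for GABAergic interneurons, 7 and 2 for hippocampal fields, 3 and 2 for striatum, 2 and 3 for thalamus and 2 and 1 for choroid plexus. The part of these shifts in the members' changes was not tested.

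Between genotypes no member passed the adjusted threshold at either age. At P1, 0 of the 39 members were called by limma, where 0.0135% of all probes (2 of 14777) were, and at P30 0 of 39, where 0.00677% (1 probe) were. At an unadjusted p under 0.05 there was 1 member at P1 against 2.28% of all probes, and 0 at P30 against 2.84%. The median log2 difference of Mef2c-het from WT over the members was -0.05 at P1 and 0.00 at P30. Eomes and Neurod6 were detected on 0 of 8 arrays at P30, so that their values there compare background and set no limit on a genotype difference. The 95% intervals had a median half-width of 0.244 at each age, reaching 1.14 for Bhlhe22. They lay inside 0.5 on both sides, a difference of 1.41-fold, for 30 of 39 members at P1 and for 29 of the 37 members detected on any array at P30. Some of these were close to background. At P30 Sox4 was detected on 1 of 4 WT and 3 of 4 Mef2c-het arrays, and Neurog2 on 2 of 4 of each. Intensities were not background-subtracted, which compresses differences of dim probes, so that such intervals do not limit a difference to 1.41-fold.

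**Figure D3:**
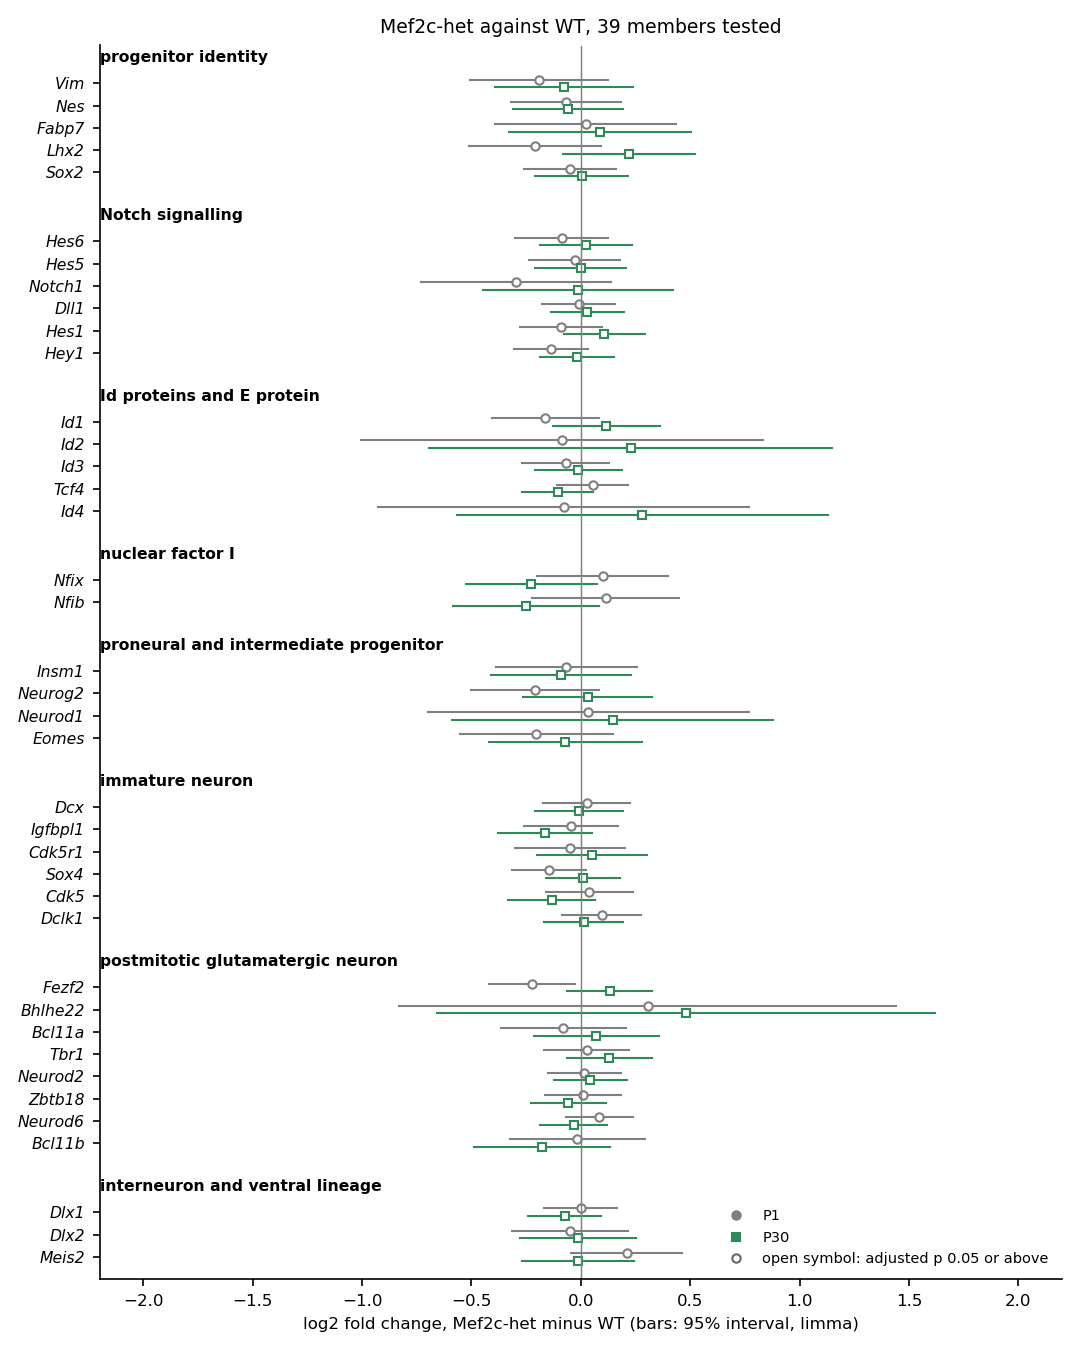
Log2 fold change of Mef2c-het against WT (x axis) for the 39 members, in the order of the plot of the age change. Points are limma estimates at P1 (grey circles) and P30 (green squares), bars are 95% intervals, and all symbols are open because no adjusted p was under 0.05. The interval of Fezf2 at P1 is the only one that does not reach 0, and the widest intervals belong to Bhlhe22, Id2, Id4 and Neurod1.

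Dcx, whose protein marks newborn neurons in tissue sections, differed between genotypes by 0.03 at P1 (95% interval -0.17 to 0.23) and by -0.01 at P30 (-0.21 to 0.19). Its levels overlapped at both ages. Tbr1 had differences of 0.03 at P1 and 0.13 at P30, and Eomes of -0.20 at P1, while at P30 Eomes was detected in neither genotype. For Nes the differences were -0.07 and -0.06, and for Neurog2 -0.21 and 0.03, where Neurog2 at P30 was detected on 2 of 4 arrays of each genotype. A p above the threshold does not show equal levels, and the intervals give the differences that these 4 arrays a group still allow.

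Fezf2 was the single member whose genotypes did not overlap at P1, against 1.42% of all probes (0.771% with Mef2c-het lower). At P30 0 members stood apart, against 1.89% of all probes (1.2% with Mef2c-het lower). At P1 it measured 11.06, 11.47, 11.38 and 11.39 in Mef2c-het, all below the WT arrays given above. The log2 difference was -0.22 ± 0.092 (unadjusted p = 0.0277, adjusted p = 1, limma), and the two-sided exact permutation p was 0.0286, the smallest that 35 divisions of 8 arrays allow. At P30 it measured 10.44, 10.20, 10.39 and 10.35 in Mef2c-het, overlapping WT, and the difference was 0.13 (unadjusted p = 0.169, limma). The genotype effect differed between the ages by 0.35 (unadjusted p = 0.0149, adjusted p = 0.998, limma interaction), so the change with age was a 2.52-fold fall in WT and a 1.97-fold fall in Mef2c-het. Of the 39 members it alone had an unadjusted interaction p under 0.05, where 2.96% of all probes did and 0 probes passed the adjusted threshold. Without Mef2c-het P1 replicate 1, its lowest array, the difference at P1 was -0.13, and without WT P1 replicate 4 it was -0.18. Lhx2 came next, at -0.21 in P1 and 0.22 in P30, with an interaction of 0.43 (unadjusted p = 0.0502, adjusted p = 0.998, limma). On the arrays of higher background, of which more are WT than Mef2c-het at P30, Lhx2 differed from the other arrays by -0.41 at P1 and -0.35 at P30. The part of these arrays in the genotype values of Lhx2 was not tested.

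Bhlhe22, Id2, Id4 and Neurod1 were low on the 5 arrays of higher background. For Bhlhe22, a repressor active in projection neurons, these arrays differed on the log2 scale by -1.58 at P1 and -1.55 at P30 from the other arrays of that age. For Id2 the differences were -1.37 and -1.23, and for Id4 -1.16 and -1.14. These 3 of 39 members were lower by over 1 log2 unit at both ages, where 1.07% of all probes were. For Neurod1 they were -1.28 and -0.55. The clusters were drawn from these same intensities. A block of them removes spread that defined them, so the p-values that follow are no independent support. With the array cluster as a block in limma, the fall with age in WT was -0.74 for Bhlhe22 (adjusted p = 0.00191) and -0.62 for Id2 (adjusted p = 4.5e-05). In Mef2c-het the falls were -0.96 and -0.63 (adjusted p = 0.00016 and 2.9e-05, limma). Id4 gave 0.12 in WT with the block (adjusted p = 0.501). On the 11 arrays of lower background alone, a choice made after seeing the data, Bhlhe22 and Id2 passed in both genotypes as well. Neurod1 passed there in Mef2c-het (log2 change -1.02, adjusted p = 0.000488, limma). What on these arrays sets the levels of these probes was not tested.

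**Figure D4:**
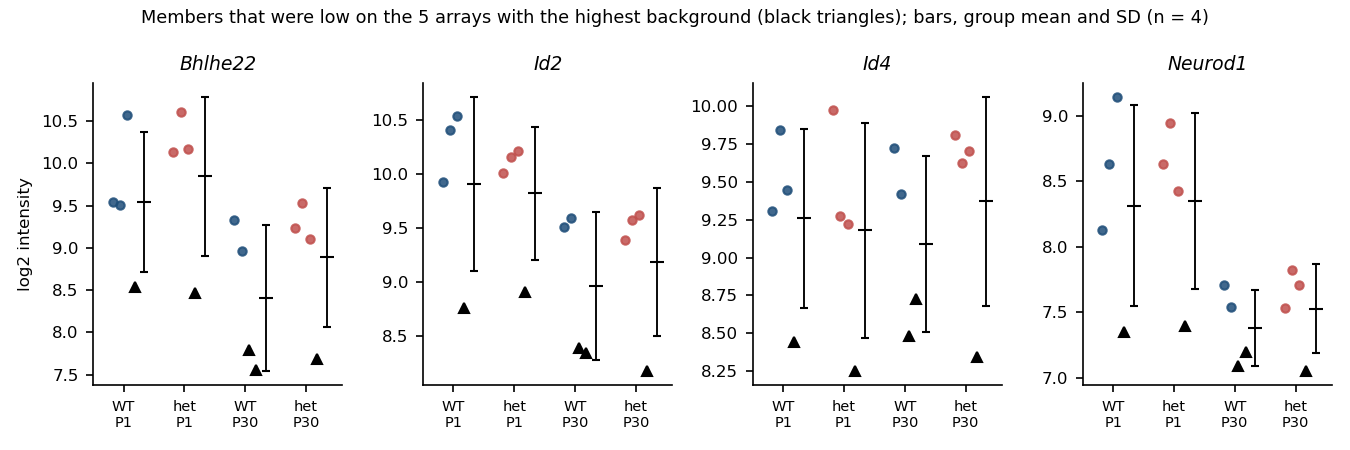
Log2 intensity (y axis, a scale of its own in each panel) of Bhlhe22, Id2, Id4 and Neurod1 on every array of the 4 groups (het, Mef2c-het). Black triangles are the 5 arrays of higher background, dots the other 11 (WT blue, Mef2c-het red), and bars the group mean and SD (n = 4). In each panel the triangles are the lowest arrays of their group.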

How the data were processed

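Hippocampal RNA was measured on 16 Illumina beadchip arrays. The authors deposited, for 25697 probes, the mean bead intensity of every array on a linear scale, not normalized, and the detection p-value that the authors' scanner software computed. The authors also deposited the number of beads and the standard error over them, which served here to describe precision. The submitters' notes name limma and lumi, and the methods state log2 and quantile normalization. Versions are not given in the sources used here.

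Intensities were converted to log2 without an added constant (the lowest was 92.8), quantile normalized over all 16 arrays and fitted with limma 3.58.1 in R 4.3.3 (lmFit, eBayes), with group means, two-sided tests and Benjamini-Hochberg adjustment over the 14777 probes that passed the detection filter. One fit of all arrays gives each member 1 value per array. Probes were named by the RefSeq gene table of GRCm38.p6 (25376 of 25697). The files name no genome build. Permutation tests ran over all 35 divisions. The fit was run on simulated arrays with known changes in a small set of probes. These held no array clusters and no broad age change, so the run checks the code and not the design. Members, roles and lists were chosen with earlier results of these data known. Array values were given for the largest change of each role, Dcx, Mef2c and members with a genotype difference at an unadjusted p under 0.05; values of Igfbpl1, Hes1, Hes5, Bhlhe22, Id2, Id4 and Neurod1 were added after they were seen. Alternatives changed normalization, background, filter, variance model, probe choice, clusters, sex, pairing and arrays.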

Additional observations from a re-analysis of the deposited data

Results flagged for a closer look

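In 14 of the 156 groups of 4 arrays examined (39 members in 4 groups), 1 array stood far from the other 3 by Dixon's ratio, its gap to the nearest array divided by the range of the group. Chance flags about 1 group in 20, and the 14 groups are 8.97%. In Mef2c-het at P30, replicate 7 was low for Id2 (ratio 0.838), Id4 (0.875) and Neurod2 (0.976), and in Mef2c-het at P1 replicate 8 was low for Id2 (0.848). WT P1 replicate 8 was low for Bcl11a (0.885), and WT P30 replicate 6 was low for Neurod6 (0.885), whose probe was below detection there, and high for Sox2 (0.846). All 7 lie on arrays of higher background. In Mef2c-het at P1, replicate 2 was high for Hes5 (0.868) and Tbr1 (0.883) and replicate 1 for Vim (0.872). WT P1 replicate 4 was high for Fezf2 (0.831) and Insm1 (0.833), and replicate 1 for Nfib (0.905). WT P30 replicate 3 was low for Tbr1 (0.961), by a gap of 0.095 on the log2 scale. By limma, 0 members passed the adjusted threshold for the interaction of genotype and age, and 1 (Fezf2) had an unadjusted p under 0.05.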

How the results depend on the processing

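The counts of members that rose or fell with age moved little, from 3 or 4 up and 30 to 33 down in WT to 4 up and 29 to 32 down in Mef2c-het over all alternatives, and no alternative called a member for genotype. Intensities were not background-subtracted, which compresses changes of dim probes. Normexp background correction took the median age change to -1.32 in WT and -1.07 in Mef2c-het. Leaving out 1 array in turn, it ranged from -0.998 to -0.779 in WT and from -0.83 to -0.67 in Mef2c-het, the largest shifts coming without WT P1 replicate 8 and Mef2c-het P1 replicate 8.

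The genotype difference of Dcx lay near 0 and changed sign. It was 0.028 at P30 with a common median in place of quantile normalization, and 0.0067 at P30 with the array cluster as a block. With the mean of both tested probes it was -0.043 at P1 and 0.018 at P30, with an interaction of 0.061. Without the 5 arrays of higher background, a choice made after seeing the data, it was -0.048 and 0.144, with an interaction of 0.19. Leaving out 1 array in turn, it ranged from -0.041 to 0.087 at P1 and from -0.072 to 0.048 at P30, and its interaction from -0.099 to 0.034. The cause of these shifts was not tested.

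The methods name no pairing of arrays, and the replicate numbers were not taken as pairs in the main fit. Same-numbered arrays of the genotypes correlated in their deviations at 0.09, 0.40 and 0.82 at P1 and at 0.17, -0.52 and 0.70 at P30. At P1 replicates 4 and 8 correlated best with their own number, and at P30 no number did. Both arrays were of higher background where the correlation was 0.82 or 0.70, and only the WT array where it was -0.52. With the replicate block, Dcx gave -0.014 at P1 and -0.08 at P30 and Fezf2 -0.28 and 0.13 (adjusted p = 0.576 and 0.896, limma), 0 members were called, and 3 probes at P1 and 0 at P30 were called of all tested.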
